A study of Mus musculus with 56 samples.

Results

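This account concerns cortical and medullary thymic epithelial cells (cTECs and mTECs) of mice 3 days after giving birth (D3), and it sets the RNA of one cell type against that of the other. The 6 samples labelled D3, 3 of cTECs and 3 of mTECs, were taken out of the 56 samples of the series. The mothers were B6.SJL females, which carry the Ptprca Pep3b and CD45.1 alleles on a B6 background, mated with BALB/cJ males. Their pups were taken away at birth, so no mother was lactating, and this holds for every postpartum group. Each sample came from 1 mouse, whose age the labels do not give. Stroma was freed with enzymes, EpCAM+ cells were enriched on beads, and the EpCAM+ CD45- cells were split in the sorter by binding of the lectin UEA1 into mTECs (UEA1+) and cTECs (UEA1-). Samples are named by cell type and by the number in their title. The D3 groups were also set beside D-2 (late pregnancy, 2 days before birth), D6 and the non-pregnant controls (NPC), each with 3 samples of each cell type.

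The cortex and the medulla of the thymus do different work. In the cortex, cTECs draw in T cell progenitors with chemokines, drive their commitment through Notch ligands and present peptides made by a proteasome and proteases of their own, on which thymocytes are positively selected. In the medulla, mTECs attract selected thymocytes and display antigens of other tissues, many under the control of Aire or Fezf2, so that self-reactive cells are removed. During pregnancy the thymus shrinks, and D3 falls early in its regrowth.

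The 6 libraries were unequal, and this bears on every value that follows. Total expected counts, the reads that RSEM assigns to genes, were 6877075 to 7908073 for the cTEC samples and 4879087 to 12917005 for the mTEC samples. With all libraries thinned to the size of the smallest, 4879087 counts, the number of genes with 3 or more counts was 15912, 9987 and 14566 in cTEC replicates 1 to 3 and 11680, 13168 and 16522 in mTEC replicates 1 to 3. The means did not differ between cell types beyond this spread (13488 ± 3106 against 13790 ± 2480, SD, n = 3; two-sided exact permutation p = 0.9, where 3 against 3 cannot go below 0.1). cTEC replicate 2 and mTEC replicate 1 held the fewest genes, and of the genes tested, 6266 and 4716 were listed at 0 in them, against 542 in mTEC replicate 3. In cTEC replicate 2, for example, the Bmp-responsive regulators Id1 and Id2 were listed at 0, with 47.3 and 27.6 FPKM in cTEC replicate 1. Results are therefore also given without these 2 libraries.

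**Figure D1:**
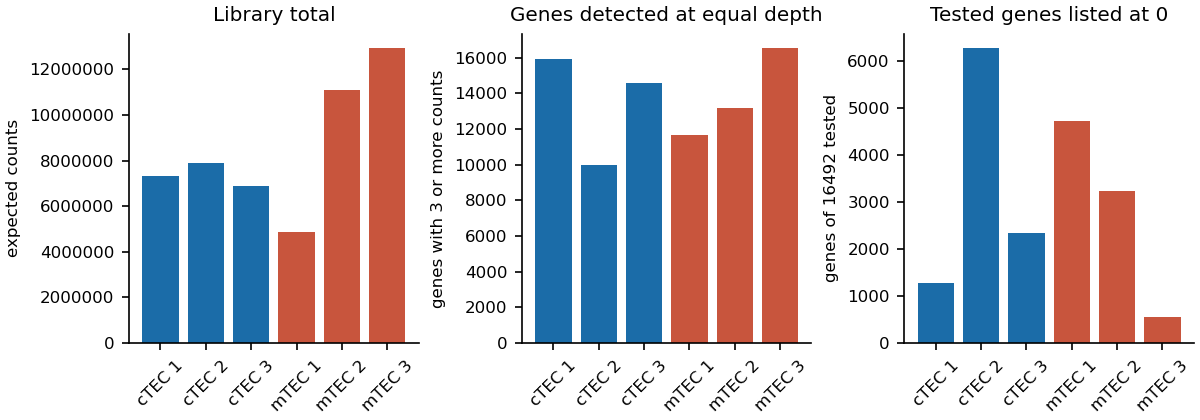
Each bar is 1 D3 library (blue, cTEC; red, mTEC): left, total expected counts; middle, genes with 3 or more counts after thinning to 4879087 counts; right, how many of the 16492 genes tested were listed at 0. cTEC replicate 2 has the fewest genes (9987) and the most zeros (6266).

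At D3 a small set of genes was called as different between the cell types, and its size depended on the test used. It included 6 of 12 genes listed for cTEC function on one side. On the other it included the medullary chemokine Ccl21a, the transcription factors Fezf2 and Spib, the basal keratin Krt14 and collagen VI. Of 16492 genes with a mean FPKM (fragments scaled by gene length and by library size, which lets genes be compared) of 0.5 or more in either cell type, 39 were higher in cTECs (0.236% of genes tested) and 43 were higher in mTECs (0.261%), at a fold-change of 2 or more and a Benjamini-Hochberg adjusted p of 0.01 or less in limma-voom. At an unadjusted p under 0.05 there were 1894 genes. In 36 of the 39 and in 42 of the 43, every sample of one cell type lay above every sample of the other, a separation seen in 6.57% of all genes tested for cTECs above mTECs and in 8.03% for the reverse. The called genes were picked in these same libraries, so their separation was nearly fixed by the call and is no separate support for it.

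Single libraries moved these counts. Without cTEC replicate 3 the count higher in cTECs was 67, without mTEC replicate 1 it was 21, without mTEC replicate 2 it was 20, and without mTEC replicate 3 it was 82. The count higher in mTECs was 28 without cTEC replicate 2, 23 without mTEC replicate 2 and 77 without mTEC replicate 3. Without both libraries with the fewest genes, 31 and 26 genes were called, and these held 23 of the 39 and 22 of the 43. The quasi-likelihood test of edgeR called 15 and 10 genes, of which 14 and 10 were among the 39 and 43, and DESeq2 called 83 and 127, with 37 and 42 of them. Of the calls, 13 genes higher in cTECs and 8 higher in mTECs held in edgeR, in DESeq2 and without the 2 libraries. Among those named below they are Cxcl12, Prss16, Cd83, Ackr4, Mgll, Lpl, Apba2, Isg20, Cbr2, Tns1 and Sord for cTECs, and Spib, Col6a2, Gem, Wfdc18, Rgs5, Alox15 and Tgfbi for mTECs. Psmb11, Ly75, Ccl25, Pax1, Krt18, Fezf2, Plekhb1, Tagln and Tpm2 did not pass without the 2 libraries.

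**Figure D2:**
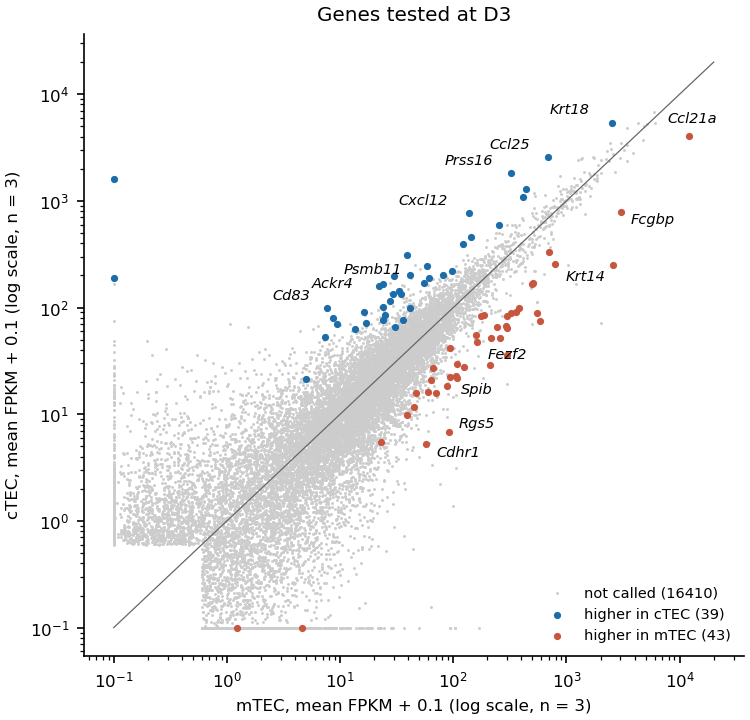
Each point is 1 of the 16492 genes tested at D3, by its mean FPKM + 0.1 in mTECs (x axis) and cTECs (y axis), both on log scales, n = 3 per cell type; the line marks equal levels. The 39 genes called higher in cTECs (blue) and the 43 called higher in mTECs (red) are mostly abundant genes, and the grey cloud widens at low levels.

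The marker genes separated the sorted populations as their labels say, though not cleanly. Psmb11, the thymoproteasome subunit that only cTECs are known to make, measured 257, 332 and 151 FPKM in cTEC replicates 1 to 3 and 64.4, 85.7 and 24.6 FPKM in mTECs. Prss16, the thymus-specific serine protease that helps make MHC class II peptides, measured 1714, 2451 and 1325 FPKM in cTECs and 313, 430 and 223 FPKM in mTECs. Ly75, the endocytic receptor also called DEC-205, measured 60, 131 and 64.8 FPKM in cTECs and 17.4, 22.6 and 33.6 FPKM in mTECs. All 3 were higher in every cTEC sample than in any mTEC sample, and none was absent from mTECs. On the log2 scale the differences (cTEC minus mTEC, ± standard error) were 2.25 ± 0.34 for Psmb11 (adjusted p = 0.00088, limma-voom), 2.56 ± 0.23 for Prss16 (adjusted p = 1.2e-06) and 1.78 ± 0.33 for Ly75 (adjusted p = 0.0056). The calls of Psmb11 and Ly75 were lost without cTEC replicate 2 or without mTEC replicate 1, and that of Ly75 also without mTEC replicate 2.

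On the medullary side, Ccl21a, the chemokine that brings CCR7-bearing thymocytes into the medulla, measured 10583, 13430 and 12027 FPKM in mTECs and 4614, 3988 and 3646 FPKM in cTECs. It was the most abundant transcript of mTECs and still ranked 8th by mean FPKM in cTECs. Fezf2, a transcription factor for tissue antigens, measured 182, 181 and 119 FPKM in mTECs and 56.9, 63.7 and 21.6 FPKM in cTECs. Neither gene overlapped between the cell types, and their log2 differences were -1.59 ± 0.14 (adjusted p = 1.1e-06) for Ccl21a and -1.85 ± 0.34 (adjusted p = 0.0056) for Fezf2. The call of Fezf2 was lost without cTEC replicate 2, mTEC replicate 1 or mTEC replicate 2. Aire, the autoimmune regulator, measured 20, 51.3 and 68.8 FPKM in mTECs and 8.52, 12.6 and 2.63 FPKM in cTECs. Every mTEC sample was higher than every cTEC sample, but the difference of -3.38 ± 1.39 did not pass the test (adjusted p = 0.34). Ccl21a lies on chromosome 4 among near-identical copies, between which reads may be split. The 5 copies summed to 10951, 13015 and 12415 CPM (counts scaled to library size) in mTECs and 4035, 3459 and 3083 in cTECs, so the sum kept the order of Ccl21a itself. The copy Gm13304 (log2 difference -7.96 ± 1.5), called higher in mTECs, is uncertain for this reason. It was listed at 0 in cTEC replicate 2 and lost its call without mTEC replicate 1 or 2. Gm13305 (-2.96 ± 0.46), also called higher in mTECs, lies on chromosome 4 too but is not among the 5 copies summed. Whether its reads are shared with other genes was not tested.

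**Figure D3:**
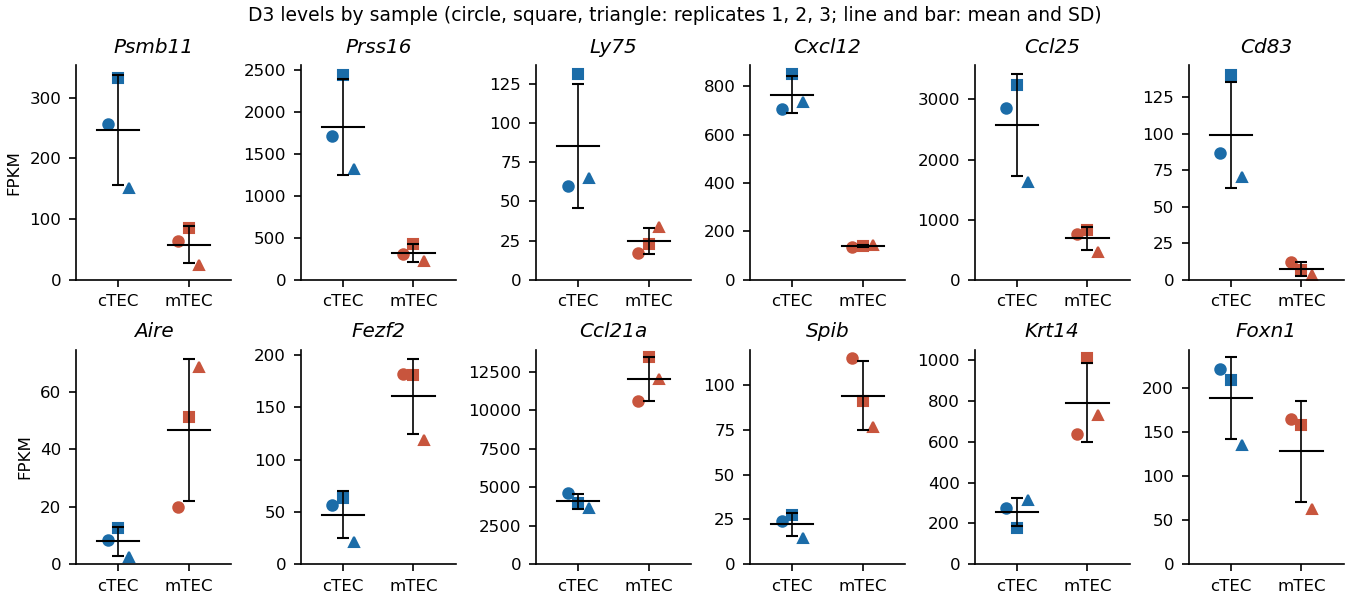
FPKM of 12 genes in each D3 sample (blue, cTEC; red, mTEC; circles, squares and triangles for replicates 1, 2 and 3), with the mean as a line and the SD as a bar (n = 3); each axis starts at 0. All genes but Foxn1 keep the cell types apart, with Cxcl12 at 764 ± 76.1 against 138 ± 4.31 FPKM.

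Of the 12 genes listed for cTEC function, all tested, 6 were higher in cTECs, none was higher in mTECs and 6 did not pass the test. The shares called over all genes tested were 0.236% higher in cTECs and 0.261% higher in mTECs. The median log2 difference of the list was 1.84, beside -0.10 over all genes tested. Beyond the 3 markers, the chemokine Cxcl12, which acts on CXCR4 of early progenitors, measured 707, 850 and 735 FPKM in cTECs and 134, 138 and 143 FPKM in mTECs. This was a difference of 2.46 ± 0.20, or 5.5-fold (adjusted p = 3.6e-07), and it passed an adjusted p of 0.01 in every alternative that kept the 6 libraries. Ccl25, the ligand of CCR9 on progenitors that seed the thymus, measured 2864, 3240 and 1626 FPKM in cTECs and 766, 833 and 468 FPKM in mTECs, a difference of 1.91 ± 0.24 (adjusted p = 0.00014) that did not pass without the 2 libraries with the fewest genes. Cd83, a surface protein that keeps MHC class II molecules on the cell, measured 86.9, 140 and 70.7 FPKM in cTECs and 12.5, 6.57 and 3.38 FPKM in mTECs. Its difference of 4.21 ± 0.67 (adjusted p = 0.0015) ranked first among the named genes higher in cTECs apart from the multi-copy gene Hist1h2ap described below, and it did not pass without mTEC replicate 1 or mTEC replicate 2.

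The other 6 members of that list were not called at this threshold. Dll4, the Notch ligand that commits progenitors to the T lineage, measured 23.8, 19 and 18.1 FPKM in cTECs and 23.8, 22.6 and 12.1 FPKM in mTECs. The groups overlapped, and the log2 difference of 0.13 had a 95% interval of -0.65 to 0.90. Ctsl, the protease cathepsin L, was abundant in both (2221, 3035 and 2368 FPKM in cTECs against 1372, 1806 and 2090 in mTECs), with a difference of 0.47 (95% interval 0.16 to 0.78, adjusted p = 0.16). Il7, the cytokine on which early thymocytes depend, had its higher values in mTECs, 271, 176 and 144 FPKM against 113, 119 and 103 FPKM in cTECs, without overlap but also without a call (difference -0.75, 95% interval -1.29 to -0.22, adjusted p = 0.2). Kitl, Enpep and Tbata, the rest of the list, had positive differences with adjusted p of 0.29, 0.099 and 0.092. Kitl (14.3 to 91.1 against 5.19 to 10.2 FPKM), Enpep (29.2 to 47.3 against 8.28 to 13.2 FPKM) and Ctsl were higher in every cTEC sample than in any mTEC sample. Of the 12 listed, 9 separated in this direction and 1 in the other, beside 6.57% and 8.03% of all genes tested.

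The start regions of 3 of the called cortical genes are printed because Foxn1, the transcription factor that directs thymic epithelium, is known to bind DNA at the core GACGC, and Psmb11 and Ccl25 are known among its targets. Each is the 250 bases before the annotated start (GRCm38.p6, RefSeq, 5′ to 3′ on the gene's strand, all 3 on the plus strand), with GACGC or its reverse complement GCGTC in capitals. Psmb11 is at chr14:54625060-54625309, Ccl25 at chr8:4324960-4325209 and Cxcl12 at chr6:117168285-117168534.
Psmb11: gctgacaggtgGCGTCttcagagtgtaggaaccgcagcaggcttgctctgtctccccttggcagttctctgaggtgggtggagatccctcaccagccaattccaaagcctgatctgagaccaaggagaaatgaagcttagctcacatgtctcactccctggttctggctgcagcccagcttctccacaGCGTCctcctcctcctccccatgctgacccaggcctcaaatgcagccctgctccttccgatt
Ccl25: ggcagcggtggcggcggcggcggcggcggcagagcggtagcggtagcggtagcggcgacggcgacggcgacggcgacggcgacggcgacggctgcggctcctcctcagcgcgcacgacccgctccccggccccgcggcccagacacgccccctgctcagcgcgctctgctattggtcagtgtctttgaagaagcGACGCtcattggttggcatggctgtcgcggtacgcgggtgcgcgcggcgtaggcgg
Cxcl12: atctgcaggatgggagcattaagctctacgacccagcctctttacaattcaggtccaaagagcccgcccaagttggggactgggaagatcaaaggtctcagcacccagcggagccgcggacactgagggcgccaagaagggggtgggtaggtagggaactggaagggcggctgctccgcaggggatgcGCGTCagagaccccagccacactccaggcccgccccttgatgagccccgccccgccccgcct
Psmb11 held 2 copies and the others 1 each, and for Ccl25, which has 2 starts in the table, the first was used. The core is short and common. On either strand it stood in 22.6% of 32851 such regions in the genome, in 36.4% of the 11513 tested genes with a region, in 12 of the 30 genes called higher in cTECs that had one (40.0%) and in 5 of the 26 called higher in mTECs (19.2%). These matches are descriptions of letters and were not tested.

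Foxn1 itself measured 222, 209 and 136 FPKM in cTECs and 165, 158 and 62.2 FPKM in mTECs, with overlap and no call (difference 0.71, 95% interval 0.09 to 1.33, adjusted p = 0.36). Of 20 transcription factors of thymic epithelium tested, 1 was higher in cTECs and 1 in mTECs, beside 0.236% and 0.261% of all genes tested. Pax1, a factor of the pharyngeal pouch from which the thymus forms, measured 611, 693 and 470 FPKM in cTECs and 370, 266 and 126 FPKM in mTECs, without overlap (difference 1.45 ± 0.26, adjusted p = 0.0036), and lost its call without cTEC replicate 2, mTEC replicate 2 or mTEC replicate 3. Spib, an Ets factor of mTECs, measured 115, 91.2 and 76.6 FPKM in mTECs and 24.1, 27.7 and 14.8 FPKM in cTECs (difference -2.32 ± 0.35, adjusted p = 0.00084), with no overlap and a call that held when any 1 library was left out. The epithelial factor Ehf measured 40.3, 55.6 and 50.9 FPKM in mTECs and 15.5, 15 and 13 FPKM in cTECs but did not pass (adjusted p = 0.047), and Trp63, a factor of epithelial progenitors, gave 80, 130 and 162 FPKM in cTECs against 126, 103 and 150 FPKM in mTECs.

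Of the 16 genes listed for mTEC function, 3 (Ccl21a, Fezf2 and Spib) were higher in mTECs, none was higher in cTECs and 13 did not pass. The shares called over all genes tested were 0.261% higher in mTECs and 0.236% higher in cTECs. The median difference was -1.72, with 13 of 16 below 0, beside -0.10 and 8844 of 16492 over all genes tested. Without overlap, 8 of the 16 were higher in mTECs and 1 in cTECs, beside 8.03% and 6.57% of all genes tested. The member higher in cTECs was Ltbr, at 120, 77.7 and 69.3 FPKM in cTECs and 63.4, 57 and 44.6 FPKM in mTECs. Several members that did not pass were nevertheless higher in every mTEC sample. Ccl19, the second ligand of CCR7, measured 246, 176 and 129 FPKM in mTECs and 39.5, 5.85 and 19.9 FPKM in cTECs (adjusted p = 0.14). The receptor RANK, encoded by Tnfrsf11a and needed for mTEC maturation, measured 44, 27.1 and 28.1 FPKM in mTECs and 7.32, 3.76 and 5.86 FPKM in cTECs (adjusted p = 0.14). Cd40, another receptor in mTEC maturation, measured 18.8, 48 and 34.1 FPKM in mTECs and 11, 0 and 12 FPKM in cTECs, the 0 being that of cTEC replicate 2. The costimulatory genes Cd80 and Cd86 stayed under 9 FPKM in every library.

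**Figure D4:**
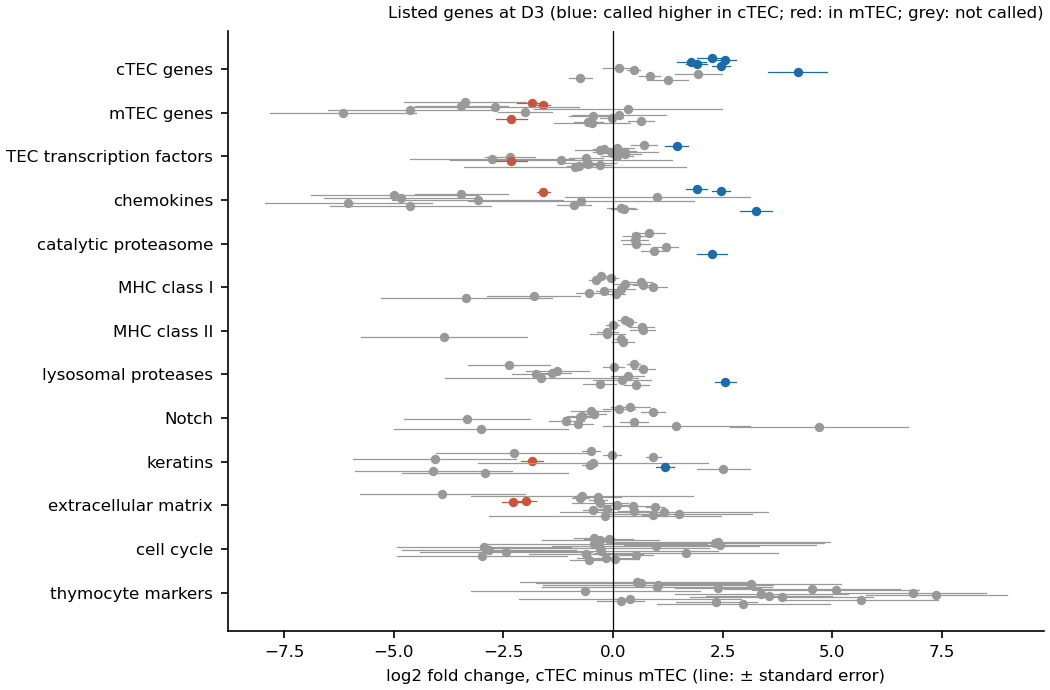
Log2 difference at D3 (x axis, cTEC minus mTEC; line, ± standard error) of each tested gene in 13 lists (rows), in blue where called higher in cTECs, red where called higher in mTECs and grey where not called. Calls fall in the cTEC and mTEC lists and among chemokines, keratins and matrix genes, and the MHC and cell cycle lists hold none.

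Of the genes of antigen presentation, Psmb11 and Prss16 were called. Of 7 catalytic proteasome subunits, Psmb11 was called and 6 were not, though all 7 differences were above 0 (median 0.81). Psmb9, an inducible subunit of the immunoproteasome, came nearest, with 390, 240 and 216 FPKM in cTECs against 235, 194 and 109 FPKM in mTECs (difference 1.2 ± 0.28, adjusted p = 0.04), and its groups overlapped. None of 13 genes of the class I pathway and none of 10 of the class II pathway passed, with medians of -0.04 and 0.20. Over all genes tested, 0.236% were called higher in cTECs and 0.261% in mTECs. The groups did not overlap in 5 of the 13, 3 higher in cTECs and 2 in mTECs, and in 2 of the 10, both higher in cTECs. Over all genes tested this was so in 6.57% for cTECs above mTECs and in 8.03% for the reverse. Tapbp, which loads peptides on class I, measured 217, 233 and 231 FPKM in cTECs and 131, 155 and 111 FPKM in mTECs (adjusted p = 0.17). In the other direction, B2m measured 4053, 3160 and 3843 FPKM in cTECs and 4987, 4885 and 4428 FPKM in mTECs. Cd74, the invariant chain of class II and the most abundant transcript of cTECs, measured 6949, 6966 and 6367 FPKM in cTECs and 6162, 6914 and 4765 FPKM in mTECs (difference 0.18, 95% interval -0.09 to 0.44). Of 13 lysosomal proteases and partners, Prss16 alone was called. The cathepsins Ctss, Ctsz, Ctsc and Ctsh had their higher values in every mTEC sample, for Ctss 65.5, 35.5 and 43.2 FPKM against 11.7, 6.96 and 8.46 FPKM, with adjusted p of 0.31, 0.16, 0.15 and 0.52. Without overlap, 4 of the 13 were thus higher in mTECs, and 3 were higher in cTECs (Prss16, Ctsl and Ctsd). Ctsd measured 146, 142 and 143 FPKM in cTECs and 73.9, 112 and 76 FPKM in mTECs.

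Of 15 chemokines and chemokine receptors tested, 3 were higher in cTECs (Cxcl12, Ccl25 and Ackr4) and 1 in mTECs (Ccl21a). Among all genes tested, 0.236% were called higher in cTECs and 0.261% in mTECs. Ackr4, an atypical receptor that takes up Ccl19, Ccl21 and Ccl25, measured 179, 125 and 195 FPKM in cTECs and 43.6, 13.1 and 14.3 FPKM in mTECs. The groups did not overlap, mTEC replicate 1 was the highest of the mTECs, and the difference was 3.26 ± 0.37 (adjusted p = 4.8e-05). Cxcl9, an interferon-induced chemokine, measured 89.5, 64.7 and 112 FPKM in mTECs and 15.8, 0 and 12.3 FPKM in cTECs, and Ccl17, a ligand of CCR4, was listed at 0 in all cTECs and at 26.7, 7.13 and 0.9 FPKM in mTECs. Neither passed (adjusted p = 0.16 and 0.29).

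Among 12 keratins, Krt18 of simple epithelia was higher in cTECs and Krt14 of basal epithelia was higher in mTECs. For this list and the matrix genes below, the shares called over all genes tested were 0.236% higher in cTECs and 0.261% higher in mTECs. Krt18 measured 6333, 6126 and 3766 FPKM in cTECs and 3195, 2841 and 1528 FPKM in mTECs (difference 1.18 ± 0.21, adjusted p = 0.0034). Its groups did not overlap, but the call was lost without cTEC replicate 2 or any 1 of the mTEC replicates. Its partner Krt8 followed the same order (2713, 2944 and 1899 FPKM against 1521, 1629 and 931 FPKM) and missed both thresholds (difference 0.92 ± 0.18, adjusted p = 0.011). Krt14 measured 636, 1011 and 731 FPKM in mTECs and 273, 179 and 316 FPKM in cTECs (difference -1.85 ± 0.26, adjusted p = 0.00034) and held when any 1 library was left out. Its partner Krt5 overlapped, at 3141, 3216 and 1761 FPKM in mTECs and 2390, 1609 and 1582 FPKM in cTECs (adjusted p = 0.3). In the list of matrix genes, 2 of 18 were called, both collagen VI chains higher in mTECs: Col6a1 measured 275, 358 and 346 FPKM against 101, 60.7 and 106 FPKM (difference -1.98 ± 0.23, adjusted p = 5.7e-05), and Col6a2 266, 353 and 273 FPKM against 74.1, 43.3 and 75.7 FPKM (difference -2.29 ± 0.25, adjusted p = 1.9e-05). Neither chain overlapped between the cell types.

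The 10 called genes with the largest differences in each direction, a mean of 5 FPKM or more and no overlap, were mostly outside these lists. For cTECs, 1 was an unprocessed pseudogene, which is counted and not named, and 1 was the histone gene Hist1h2ap, with 185, 321 and 58.5 FPKM in cTECs and 0 in all mTECs. Hist1h2ap shares its sequence with other H2A genes, and Hist1h2ao showed the mirror image, 0 in all cTECs and 221, 86.8 and 5.23 FPKM in mTECs. The 15 H2A genes of the cluster summed to 74.5, 128 and 24.6 CPM in cTECs and 87.5, 34.4 and 3.1 in mTECs, which overlapped, so the call of Hist1h2ap is uncertain. It was also lost without mTEC replicate 1 or mTEC replicate 2.

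The named genes at the head of the cTEC side after Cd83 and with Ackr4 were 6. Mgll, the lipase that breaks down monoacylglycerols, measured 169, 211 and 218 FPKM in cTECs and 65.9, 13.4 and 9.97 FPKM in mTECs (difference 3.65 ± 0.32, adjusted p = 1.2e-06). Lpl, which releases fatty acids from lipoproteins, measured 80.5, 92.9 and 65.7 FPKM against 13.1, 7.61 and 5.09 FPKM (difference 3.49 ± 0.42, adjusted p = 8.3e-05). In both, as in Ackr4, mTEC replicate 1 was the mTEC sample nearest to the cTECs. Isg20, an exonuclease induced by interferon, measured 344, 372 and 226 FPKM against 31, 58.5 and 26.3 FPKM (difference 2.94 ± 0.40, adjusted p = 0.00034). Apba2, an adaptor that binds the amyloid precursor protein, differed by 3.48 ± 0.66 (adjusted p = 0.0077), Plekhb1, a protein with a pleckstrin homology domain, by 2.93 ± 0.48 (adjusted p = 0.0017) and Slc36a1, a proton-coupled amino acid transporter, by 2.81 ± 0.51 (adjusted p = 0.0049). These last 3 were lost without mTEC replicate 2, Apba2 also without mTEC replicate 1 or mTEC replicate 3, and Plekhb1 also without mTEC replicate 1.

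At the head of the mTEC side stood Cdhr1, a cadherin-related protein known from photoreceptors, with 58.9, 51.6 and 60 FPKM in mTECs and 10.1, 2.37 and 2.93 FPKM in cTECs (difference -3.91 ± 0.68, adjusted p = 0.0032), lost without cTEC replicate 1. Rgs5, a regulator of G-protein signalling, measured 72.5, 87.2 and 113 FPKM against 9.63, 4.98 and 5.33 FPKM (difference -3.86 ± 0.56, adjusted p = 0.00052). Wfdc18, a secreted whey acidic protein family member, measured 642, 564 and 541 FPKM against 89.3, 73.7 and 62.2 FPKM (difference -2.98 ± 0.39, adjusted p = 0.00025). These groups lay far apart, and the calls of Rgs5 and Wfdc18 held when any 1 library was left out. Gem, a small GTPase, differed by -2.99 ± 0.40, the complement protease gene C1s1 by -2.79 ± 0.43, the potassium channel gene Kcnq3 by -2.65 ± 0.40 and the lipoxygenase gene Alox15 by -2.63 ± 0.40, with adjusted p of 0.00025, 0.00098, 0.00084 and 0.00093. C1s1 and Kcnq3 did not pass without the 2 libraries with the fewest genes.

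Other called genes are named here after their values were seen. Higher in cTECs were Cbr2, a carbonyl reductase (1481, 1153 and 1258 FPKM against 571, 446 and 292 FPKM in mTECs, difference 1.95 ± 0.21), Sord, sorbitol dehydrogenase (144, 138 and 143 FPKM against 34, 31.6 and 33.6 FPKM, difference 2.07 ± 0.28), and Psat1, which makes serine (difference 1.85 ± 0.26). Pltp, a phospholipid transfer protein (difference 1.49 ± 0.20), and Tns1, a focal adhesion protein (difference 2.67 ± 0.31), were also higher in cTECs, and all 5 held when any 1 library was left out, though Psat1 and Pltp did not pass without both libraries with the fewest genes. Higher in mTECs were Fcgbp, a protein of mucus (3115, 3439 and 2480 FPKM against 888, 797 and 684 FPKM, difference -1.96 ± 0.15, adjusted p = 2.2e-07), and Tgfbi, a matrix protein induced by TGF-beta (difference -2.28 ± 0.32). Acta2 (smooth muscle actin), Tagln (transgelin), Tpm2 (a tropomyosin) and Cald1 (caldesmon), picked singly and not from a list, were higher in mTECs by 2.19, 1.57, 1.56 and 1.91 on the log2 scale, and of these only Cald1 held when any 1 library was left out: Acta2 was lost without mTEC replicate 2, Tagln without cTEC replicate 2 or mTEC replicate 2, and Tpm2 without mTEC replicate 1 or mTEC replicate 2. Cald1 did not pass without the 2 libraries with the fewest genes. All 4 were well measured in cTECs too, where Tagln stood at 160, 202 and 139 FPKM.

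Genes of the mTECs that imitate other tissues gave no call, where 0.236% and 0.261% of all genes tested were called higher in cTECs and in mTECs. In the list of keratinized mTECs, 10 of 15 genes were tested and all 10 differences lay below 0, where 8844 of all 16492 genes tested did. Klk7 (mean 0.453 FPKM in cTECs and 8.18 FPKM in mTECs) passed the filter through mTECs alone, so the filter fixed its direction. The same holds for any such gene in the lists that follow, so these counts of directions are no separate support. Krtdap, a keratinocyte protein, measured 69.8, 55.8 and 91.9 FPKM in mTECs and 25.9, 13.5 and 33.4 FPKM in cTECs (adjusted p = 0.55). Of 15 tuft cell genes, all tested, 10 differences lay below 0, with a median of -0.24, and Avil, an actin-bundling protein of tuft cells, measured 22.5, 27.7 and 28.7 FPKM in cTECs and 8.83, 27.6 and 20.3 FPKM in mTECs. Of 18 genes of other such cells, 16 were below 0, and of 14 tissue antigens, 11. Csn2, the milk protein beta-casein and a known target of Aire, measured 72.3, 166 and 70.1 FPKM in mTECs and 34.8, 69.4 and 5.05 FPKM in cTECs (adjusted p = 0.31). None of 20 cell cycle genes passed, and Mki67, the proliferation antigen, lay between 2.53 and 6.48 FPKM in all 6 libraries. With a median standard error of 1.48 over all genes tested, differences of low genes were not detectable in these libraries.

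The remaining lists gave no call. None of 14 Notch genes, 11 cytokines and growth factors, 15 TNF receptor and NF-kB genes, 19 Wnt and Bmp genes, 15 junction genes, 11 costimulation and checkpoint genes, 5 genes tied to the sort, 8 steroid receptors, 11 steroid-responsive genes or 14 immediate early genes passed. Over all genes tested, 0.236% were called higher in cTECs and 0.261% in mTECs, so lists this short would mostly hold no call. Of 12 genes listed around Aire for tissue antigen expression, Fezf2 alone was called, and it is a factor of its own rather than a partner of Aire. Of 21 genes that the study's text names, 5 were higher in cTECs, and since the study describes them in samples of this series, this count is no independent evidence. Among the immediate early genes, 13 of 14 differences lay below 0, and Fos measured 2596, 1936 and 2564 FPKM in cTECs and 3136, 2923 and 4135 FPKM in mTECs (adjusted p = 0.094). The junction gene Dsg2, a desmosomal cadherin, measured 212, 162 and 128 FPKM in mTECs and 55.9, 64.2 and 59.6 FPKM in cTECs, without overlap but short of the threshold (adjusted p = 0.021). Pgr, the progesterone receptor, measured 7.18, 15.4 and 15.9 FPKM in cTECs and 4.62, 3.54 and 3.9 FPKM in mTECs (adjusted p = 0.4). Epcam, by which both populations were gated, measured 96.4, 103 and 108 FPKM in cTECs and 163, 184 and 267 FPKM in mTECs (adjusted p = 0.054).

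Markers of other cells gave no call in any of their 8 lists, where 0.236% and 0.261% of all genes tested were called higher in cTECs and in mTECs. None of the 8 lists covers smooth muscle cells or pericytes. The genes called higher in mTECs included Acta2, Tagln, Tpm2, Cald1 and Rgs5, which are in none of the 8 and whose cell source was not tested. In bulk RNA, fewer cells of a type and less RNA per cell cannot be told apart. The 20 thymocyte markers summed to 171, 439 and 133 FPKM in cTECs and 151, 30.1 and 37.9 FPKM in mTECs, which overlapped through mTEC replicate 1, and 18 of the 20 had the higher mean in cTECs. Of the 19 tested, 18 differences lay above 0, with a median of 2.97, beside -0.10 over all genes tested. In 6 of the 19 every cTEC sample lay above every mTEC sample, against 6.57% of all genes tested. Rag2, the partner of Rag1, was listed at 0 in every mTEC library and at 1, 0 and 0.9 FPKM in cTECs, so it passed the filter through cTECs alone. A member that passes in this way has its direction fixed by the filter, so these counts are no separate support for a direction of the list. Dntt, the enzyme that adds bases at rearranging receptor genes, measured 24.7, 25.4 and 11.4 FPKM in cTECs and 0, 0 and 1.87 FPKM in mTECs, and Rag1, of the recombinase, 7.16, 5.19 and 3.74 FPKM against 0, 0 and 1.17 FPKM. Their groups did not overlap, and neither passed (adjusted p = 0.024 and 0.047). The 16 markers of macrophages and dendritic cells summed to 8.64 to 24.6 FPKM in cTECs and 64.4 to 87.1 FPKM in mTECs, and 5 of the 16 had the higher mean in cTECs. Lyz2, the lysozyme of macrophages, carried most of the sum in mTEC replicates 1 and 2 (58.6, 42 and 32 FPKM in mTECs, 8.68, 0 and 5.66 FPKM in cTECs), and 9 of the 16 were under 3 FPKM in every library. Adgre1 and Clec9a, defining markers of macrophages and of cross-presenting dendritic cells, were at 0 in every cTEC library and in 2 of the 3 mTEC libraries. Sums of endothelial markers were 0 to 2.49 FPKM in cTECs and 7.08 to 46.2 FPKM in mTECs, led by Vwf at 36 FPKM in mTEC replicate 2, while Cdh5, Kdr, Emcn and Egfl7 were at 0 in every cTEC library and under 1 FPKM in every mTEC library. Sums of B cell and erythroid markers stayed under 20 FPKM in every library. Fibroblast markers (88.6 to 242 FPKM in cTECs, 110 to 142 FPKM in mTECs) were carried by Dcn, and Col1a1 stayed under 3 FPKM in every library. Adipocyte markers summed to 6.44 to 33.1 FPKM in cTECs and 38.7 to 70.3 FPKM in mTECs, with Adipoq, Plin1 and Lep under 1 FPKM. Pth, the parathyroid hormone, measured 188, 57.7 and 230 FPKM in cTECs and 54, 0 and 56.7 FPKM in mTECs (adjusted p = 0.39). The part of these cells in the differences above was not tested.

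The difference between the cell types was not shown to be particular to D3. An interaction of cell type and time point was tested against D-2 (19931 genes), D6 (18512) and NPC (19462), in 12 samples each, and limma-voom called 0 genes in each (0% of genes tested), with 1524, 1768 and 1168 genes at an unadjusted p under 0.05. The 3 tests share the D3 samples. The quasi-likelihood test of edgeR called 1, 0 and 0 genes and DESeq2 15, 23 and 16. Without mTEC replicate 3 of D3 the counts were 1, 3 and 1. There was 1 call against D-2 without mTEC replicate 1 or mTEC replicate 4 of D-2, and 1 against D6 without mTEC replicate 4 of D6. The median standard error of the interaction was 1.65, 1.58 and 1.88 on the log2 scale, so that most genes could differ several-fold without a call.

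The levels behind these tests are given for 4 of the leading genes. Ccl25 in cTECs averaged 393 ± 147 FPKM at D-2, 2577 ± 845 at D3 and 3252 ± 714 at D6, beside 322 ± 115, 689 ± 194 and 1173 ± 487 FPKM in mTECs (SD, n = 3). At NPC it averaged 1797 ± 833 FPKM in cTECs and 380 ± 70.9 FPKM in mTECs. At D-2 its cell types overlapped, and at NPC, D3 and D6 they did not. Its difference was larger at D3 than at D-2 by 1.68 ± 0.45 on the log2 scale, which did not pass (adjusted p = 0.53, unadjusted p = 0.00173), and the shifts of D3 from D6 and from NPC were 0.37 ± 0.45 and -0.22 ± 0.50. Prss16 averaged 221 ± 54.7 FPKM at D-2, 1830 ± 572 at D3, 2845 ± 251 at D6 and 1550 ± 425 at NPC in cTECs. In mTECs it averaged 60.4 ± 25.4, 322 ± 104, 415 ± 194 and 151 ± 20.1 FPKM, and at none of the 4 did the cell types overlap. The shifts of D3 from D-2, D6 and NPC were 0.75 ± 0.45, -0.26 ± 0.41 and -0.84 ± 0.40. Ccl21a in cTECs averaged 4776 ± 1319 FPKM at D-2, 4083 ± 491 at D3 and 2163 ± 372 at D6, with mTECs between 9969 and 12013 FPKM at these times. For a gene higher in mTECs, a positive shift means a smaller mTEC excess at D3. The shift of Ccl21a from D6 was 0.90 ± 0.21 (adjusted p = 0.5), from D-2 -0.53 ± 0.31 and from NPC 0.36 ± 0.31. Fezf2 in cTECs averaged 47.4 ± 22.6 FPKM at D3 and 25.6 ± 6.73 FPKM at D6, with a shift of 1.19 ± 0.42 (adjusted p = 0.5), beside 0.43 ± 0.43 from D-2 and 0.36 ± 0.51 from NPC. None of these shifts passed the threshold.

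**Figure D5:**
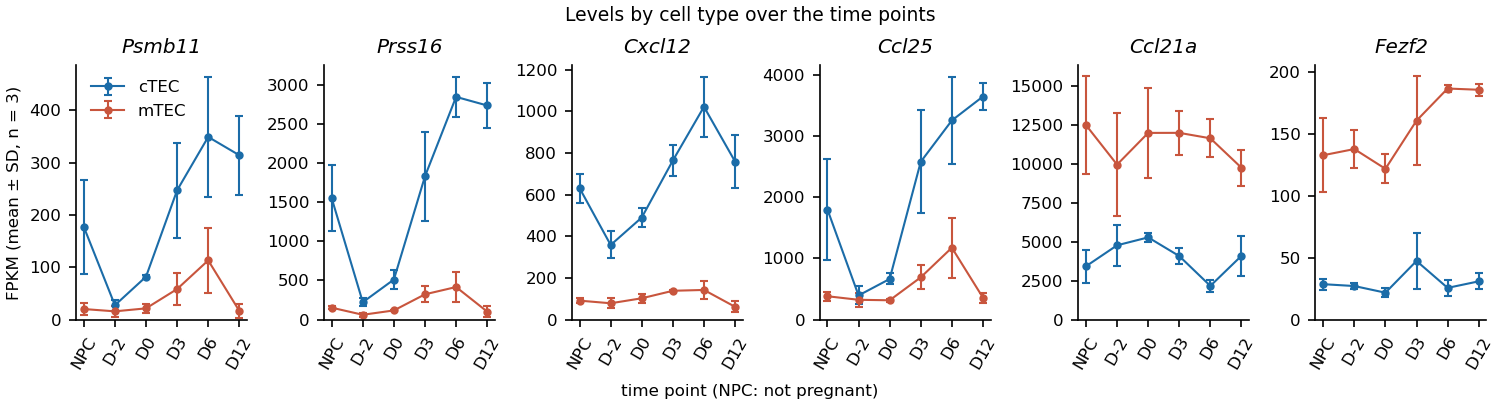
Mean FPKM (SD as bars, n = 3) of 6 genes in cTECs (blue) and mTECs (red) at the 6 time points with 3 samples of each cell type, from NPC to D12; each y axis starts at 0. At D3 the cTEC and mTEC means of all 6 genes stand apart, and Ccl25 and Psmb11 have their closest means at D-2.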

How the data were processed

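The authors trimmed reads with Trimmomatic 0.35, aligned them to GRCm38 with STAR 2.5.1b and quantified genes with RSEM 1.2.28, per the labels, and deposited for each sample the expected count (estimated reads per gene, not normalized) and the FPKM (scaled by gene length and library) of 50600 genes. GENCODE M21 gave symbols for 50376 of them. Expected counts were rounded to whole numbers. The main test was the voom method of limma 3.58.1 under R 4.3.3, scaled by TMM factors from edgeR 4.0.16, on the 6 D3 samples, without a block for replicates. Genes with a mean FPKM of 0.5 or more in either cell type were tested, and called at a fold-change of 2 and an adjusted p of 0.01, as the study's methods do. Interactions used 12 samples and one mean per group. The fits were first tested on simulated data. The alternatives were edgeR's quasi-likelihood test, DESeq2 1.42.0, limma-trend on log2(FPKM + 0.5 or 0.1), quality weights, other filters and scalings, thinned libraries, all 36 samples of 6 time points, a replicate block and leaving out samples. Each sample came from 1 mouse, and the sources used here do not state whether equal numbers mark the same mouse. Counting error is small for abundant genes at 4879087 to 12917005 counts per library and large for genes near 0.5 FPKM. Read sharing between near-identical copies and mitochondrial pseudogenes limits their values.

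Genes named were the 6 markers, the genes the study's text names, members of 35 lists, the 10 largest differences in each direction among called genes with a mean of 5 FPKM and no overlap, the 5 largest of each interaction, and the 10 highest genes of each cell type. The members and the lists were chosen with earlier results of these data known. Leaving out the 2 libraries with the fewest genes was added after seeing the data. 1 gene that this rule names is not reported here.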

Additional observations from a re-analysis of the deposited data

How the results depend on the processing

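Counts of calls depended on the processing. The genes higher in cTECs and in mTECs, 39 and 43 as reported, were 15 and 10 in edgeR, 83 and 127 in DESeq2, 3 and 1 in limma-trend on log2(FPKM + 0.5), 2 and 1 with a pseudocount of 0.1, 17 and 29 with quality weights, 6 and 4 with no filter on low values, 179 and 113 in the fit of all 36 samples, 24 and 26 with libraries thinned to the smallest, 90 and 85 at an adjusted p of 0.05, and 31 and 26 without the 2 libraries with the fewest genes. The cause of these shifts was not tested. Leaving out 1 library gave 20 to 82 and 23 to 77, and leaving out both samples of a title number gave 12 to 83 and 9 to 74 (12 and 9 without replicate 2, 83 and 74 without replicate 3). Quality weights moved the share of calls higher in cTECs from 47.6% to 37%, the fit of all 36 samples to 61.3%. The deviations of samples with the same title number correlated weakly over 8246 genes, at 0.096, 0.006 and 0.086. The samples of numbers 1 and 3 correlated best with their own number and those of number 2 did not, a hint from the data that does not settle whether the numbers pair the samples. The replicate block gave 48 and 49 calls, and 0 interaction calls at each time point. Interactions with 0 calls as reported gave 1 (D-2) in edgeR, 15 (D-2), 23 (D6) and 16 (NPC) in DESeq2, and 0 to 1 (D-2), 0 to 3 (D6) and 0 to 1 (NPC) when 1 sample was left out. The difference in genes detected at equal depth, -302 as reported (cTEC minus mTEC), ran from -1514 to 1449 when 1 library was left out, turning positive without cTEC replicate 2 (1449) and without mTEC replicate 3 (1064). Of the differences of 78 genes followed under 21 settings, 4 reversed, all of the Dll4 log2 fold change at D3: -0.02 in DESeq2, -0.03 without cTEC replicate 1, -0.24 without mTEC replicate 3 and -0.17 without both samples of replicate 3, in a range of -0.24 to 0.4 over the samples left out. Of the 78 genes, 61 had been called in these same libraries, so most were likely to keep their direction whatever the setting. Apart from leaving out libraries, Cxcl12, Sord, Fcgbp and Wfdc18 were the only called genes with an adjusted p of 0.05 or less in every alternative. With libraries thinned to the smallest, 50 of the 82 calls held. Zeros were confined neither to low genes nor to small libraries. cTEC replicate 2, with the largest total of the cTEC samples (7908073), listed Id1 at 0, against 47.3 and 34.2 FPKM in cTEC replicates 1 and 3.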
